A study of Mus musculus with 6 samples.

Results

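The genes described here are the Wnt ligands, the Frizzled receptors that bind them, and 2 families of secreted antagonists, the secreted Frizzled-related proteins (Sfrp) and the Dickkopf proteins (Dkk). They were taken by name, as every row of the gene count table whose symbol is Wnt, Fzd, Sfrp or Dkk followed by a number and an optional a or b. This gave 37 of the 54532 genes in the table: 19 Wnt, 10 Fzd, 4 Sfrp and 4 Dkk genes. RNA was sequenced from abdominal aorta of mice at day 7 after an aneurysm, a local widening of the vessel wall, had been induced. There were 3 libraries from mice labelled Olfr2 KO, which lack an olfactory receptor gene, and 3 from mice labelled WT. Neither the labels nor the design text give strain, age, sex, the kind of Olfr2 allele, the method of induction or how many animals went into a library. The p-values therefore describe library-to-library spread, which may be technical. All 6 came from induced aorta, so the data compare genotypes within the diseased tissue and hold no unoperated vessel.

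Wnt proteins are lipid-modified secreted signals that act over short distances. They bind the cysteine-rich domain of a Frizzled receptor. With the coreceptors Lrp5 and Lrp6 this stabilises beta-catenin, which then acts with TCF and LEF factors on target genes, while other branches act through planar cell polarity proteins or calcium. Sfrp proteins carry a Frizzled-like domain and bind Wnt proteins outside the cell, whereas most Dkk proteins block the Lrp coreceptors. In the vessel wall the pathway is known for roles in endothelial barrier formation and in the growth and phenotype of smooth muscle cells.

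The libraries held 17248918 to 21872027 counts. Levels are given as CPM, the count scaled by library size and TMM factor, and the values of a group are listed in the order of replicates 1 to 3. No library of either genotype had a count for Olfr2, so the deleted gene gives no check of the labels. Lists of 10 defining genes each were present at the summed level of 1025 to 2778 CPM for smooth muscle, 678 to 965 CPM for endothelium and 36060 to 55511 CPM for fibroblasts, with no gene of these lists at 0 in all 6. The summed smooth muscle level was higher in every KO library (1790 to 2778 CPM) than in any WT library (1025 to 1529 CPM). All 10 of its genes had a positive log2 fold change and 9 an unadjusted p under 0.05 (edgeR), though 0 passed the adjusted threshold. Of all tested genes, 51.1% had a positive log2 fold change and 11.4% an unadjusted p under 0.05. The T cell list lay at 170 to 205 CPM in KO and 264 to 316 CPM in WT. Of its 10 genes 0 were higher in KO, 9 had an unadjusted p under 0.05 and 0 passed. The macrophage list summed to 4066, 4496 and 5170 CPM in KO and 4275, 6802 and 4600 CPM in WT, highest in WT replicate 2. Among its 10 genes 3 were higher in KO, 2 had an unadjusted p under 0.05 and 0 passed. Its part in the values that follow was not tested. In bulk tissue, fewer cells of a type and less RNA per cell cannot be told apart, and this holds for every result that follows. Skeletal muscle genes reached 1223 CPM in KO replicate 3 against 7.64 to 21.0 CPM in the other libraries. The white adipocyte list lay at 1636 to 2560 CPM in KO and 424 to 1675 CPM in WT, where WT replicate 3 stood with the KO libraries. All 10 adipocyte genes had a positive log2 fold change, 5 had an unadjusted p under 0.05 (edgeR) and 0 passed.

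Of the 37 genes, the ligand gene Wnt16 had the smallest p between genotypes, and the 250 bases before its transcription start are shown for that reason. Those of Fzd1 are shown beside it, since it is the most abundant receptor gene of the set. Both come from RefSeq promoters on GRCm38.p6, at chr6:22287977-22288226 on the plus strand and chr5:4758217-4758466 on the minus strand, written 5′ to 3′ and ending at the base before the start. Capitals mark CCAAT boxes in the first and a TATAAA element in the second, as found by a text search.
Wnt16: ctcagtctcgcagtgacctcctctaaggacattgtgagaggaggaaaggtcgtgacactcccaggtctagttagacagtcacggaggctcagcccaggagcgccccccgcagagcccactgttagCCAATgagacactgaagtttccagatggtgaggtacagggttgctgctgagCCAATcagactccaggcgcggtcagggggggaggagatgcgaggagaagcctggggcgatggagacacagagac
Fzd1: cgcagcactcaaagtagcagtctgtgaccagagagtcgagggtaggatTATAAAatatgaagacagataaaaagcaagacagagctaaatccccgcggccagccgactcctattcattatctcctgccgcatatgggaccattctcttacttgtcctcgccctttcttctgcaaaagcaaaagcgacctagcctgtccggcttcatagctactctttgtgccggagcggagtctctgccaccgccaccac
The Wnt16 window held 2 CCAAT boxes, starting 125 and 74 bases before the start, and none of the other motifs searched. In the Fzd1 window the letters TATAAA lay 202 to 197 bases before the RefSeq start. That start lies upstream of the GENCODE start of Fzd1 at 4758035, so these distances hold for the RefSeq start only. The search covered both strands. The TCF/LEF core was searched in the form CTTTGAA, in the form CTTTGAT, in the form CTTTGTA and in the form CTTTGTT. The GC box was searched as GGGCGG, the TATA element as TATAAA and the E-box as CACGTG, beside the CArG box, which serum response factor binds in smooth muscle genes. Each window held 1 kind of motif, so no motif overlapped another. Of 32851 RefSeq promoter windows of the same length, 33.8% held CCAAT, 14.8% a TCF/LEF core, 32.7% a GC box, 12.4% TATAAA, 6.02% the E-box and 1.47% a CArG box. Absence from the count that follows, as for Fzd8 and Wnt8a, does not show that a gene lacks a promoter entry. Windows of 25 of the 37 genes were counted. Among these, 4 had a TCF/LEF core, 19 a GC box, 10 CCAAT, 4 TATAAA, 2 the E-box and 0 the CArG box. Their windows were richer in G and C than promoters in general, with a median of 69.4% over the 28 windows against 52.4% over all promoters, while that of Wnt16 stood at 59.2%. These matches describe the letters of the windows and show no binding.

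Ligand transcripts were scarce beside those of receptors and antagonists. Summed over their genes, the 19 Wnt genes came to a mean of 61.3 ± 13.0 CPM for KO and of 64.3 ± 9.21 CPM for WT (SD, n = 3 each). Fzd genes reached 389 ± 3.70 CPM and 401 ± 35.4 CPM, and Sfrp genes 1345 ± 104 CPM and 1552 ± 28.8 CPM in the same order. In each library the Sfrp counts exceeded the Wnt counts by 18.8 to 29.5 times. The Sfrp sums were 1371, 1434 and 1231 CPM in KO and 1585, 1537 and 1534 CPM in WT, and did not overlap. Sfrp1 held 55.1 to 73.2% of that sum, and without it the log2 difference of KO from WT moved from -0.21 to -0.03. The Dkk sums were 142, 106 and 110 CPM in KO and 96.3, 104 and 102 CPM in WT, of which Dkk3 made up at least 94.4%. Without KO replicate 1 the log2 difference of the Dkk sums moved from 0.23 to 0.10. Sums over Wnt and over Fzd genes overlapped between genotypes.

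**Figure D1:**
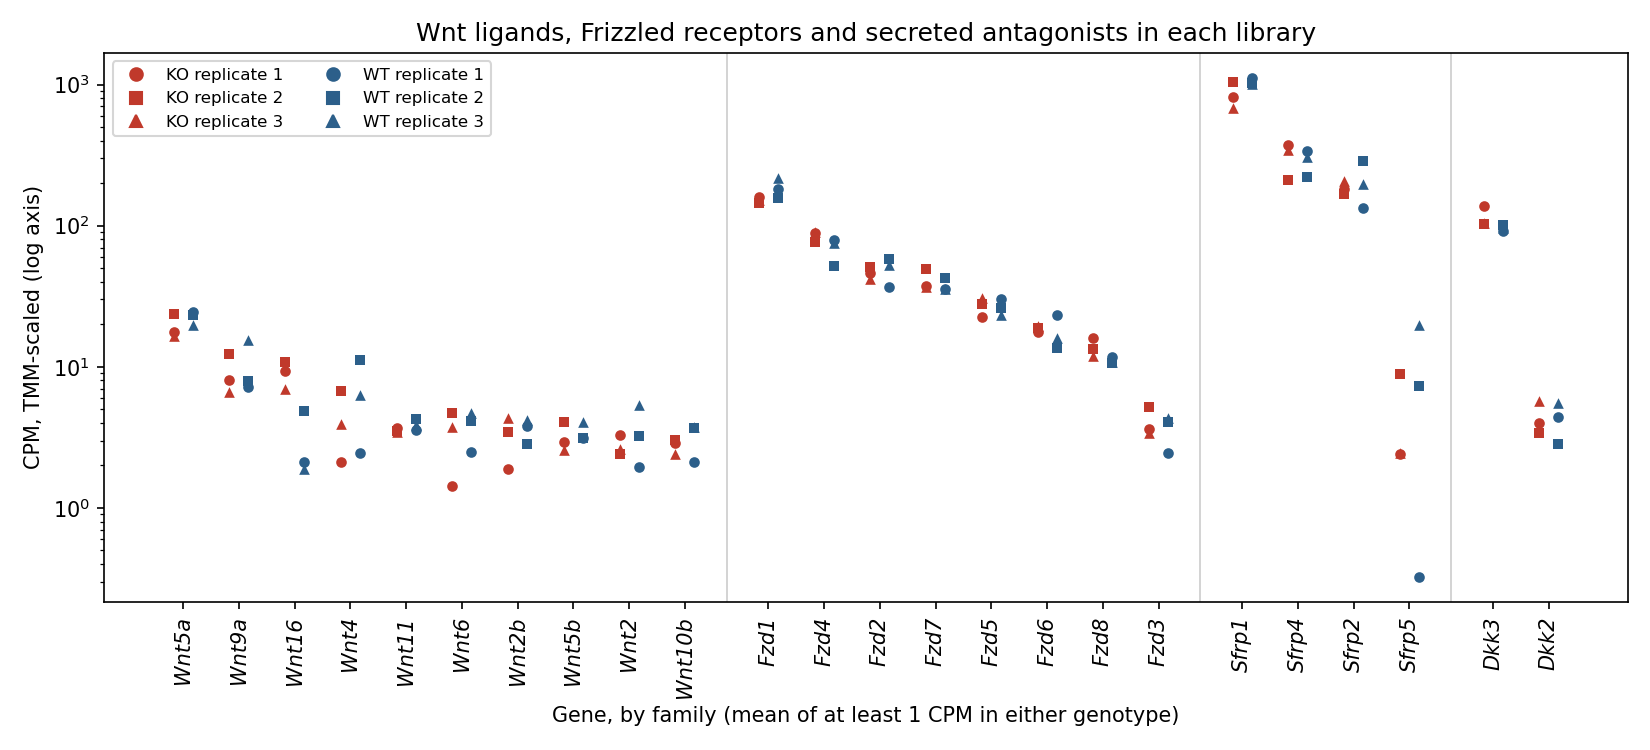
CPM on a log axis (vertical) of the 24 genes whose mean reached 1 CPM in KO or WT (horizontal, by family), with 1 point for each library, red for KO and blue for WT, and the replicate as the symbol. Sfrp1 stands highest at 678 to 1114 CPM, the ligand genes lie below 25 CPM, and the red and blue points separate for Wnt16, Fzd8 and Dkk3.

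Of the 37 genes, 25 had enough counts for the test between genotypes and 12 did not. None of the 25 passed at an adjusted p under 0.05 in edgeR's quasi-likelihood test, where 0.0123% of all 16237 tested genes passed. At an unadjusted p under 0.05 there was 1 of the 25, higher in KO, which is 4% against 11.4% of all tested genes (5.36% higher and 6.09% lower in KO). KO libraries lay wholly above WT libraries for 3 of them, Wnt16, Fzd8 and Dkk3, or 12% against 7.81% of all tested genes, and wholly below for 0 against 9.05%. By sign alone 11 of the 25 were higher in KO, where 51.1% of all tested genes were, and their median log2 fold change was -0.12 against 0.01. The share by p thus lay under that of the whole table, the 12% rests on 3 genes, and Wnt16 was the single gene with an unadjusted p under 0.05.

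**Figure D2:**
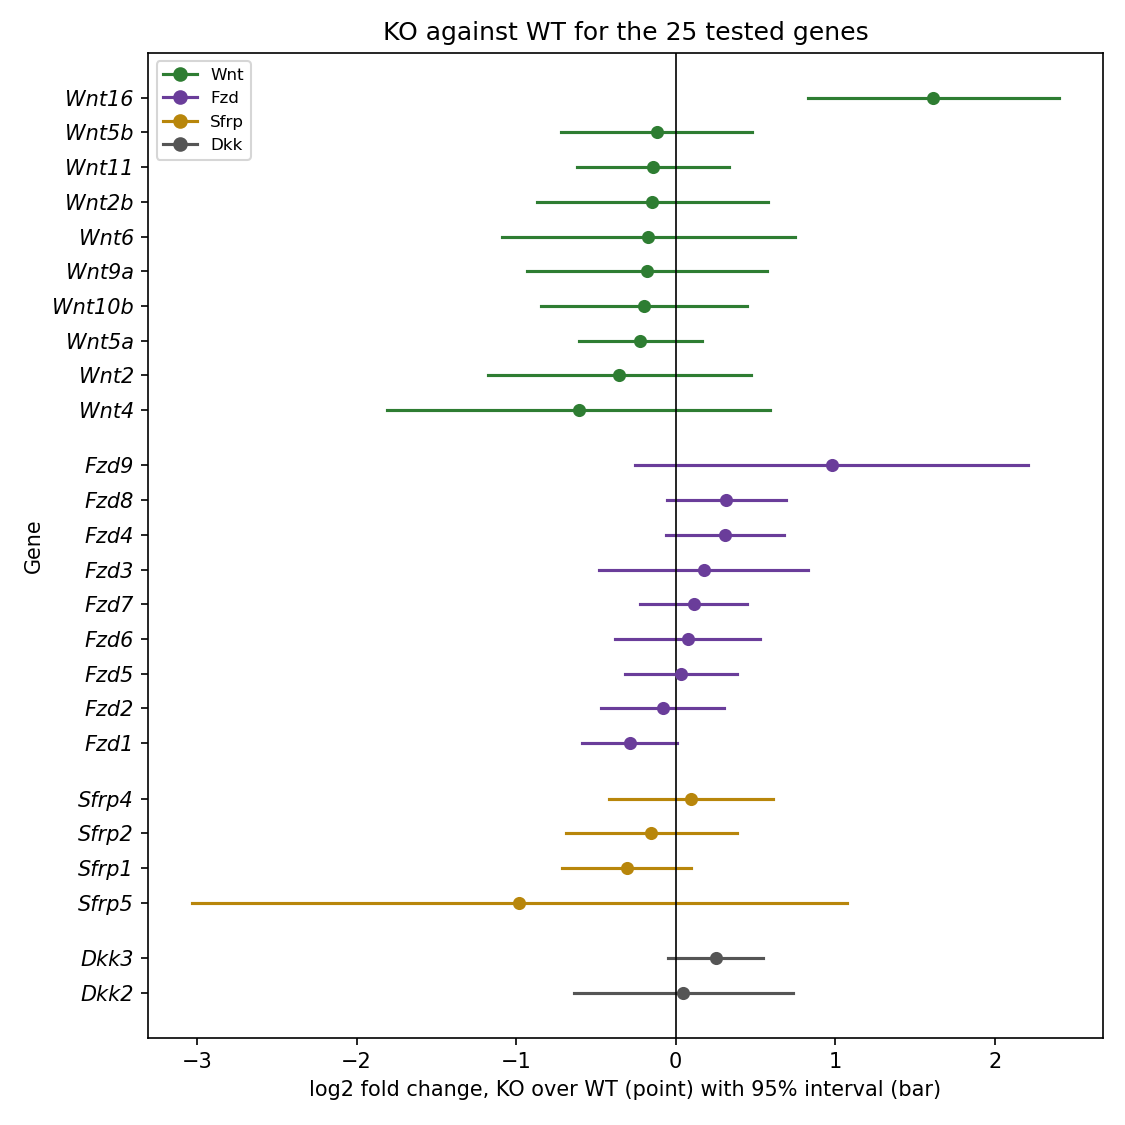
The log2 fold change of KO over WT (horizontal; point) with its 95% interval (bar) for the 25 tested genes (vertical), colored by family. The interval of Wnt16, from 0.83 to 2.40, lies wholly above 0, and those of the other 24 genes cross 0.

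Wnt16 encodes a ligand best known for its role in cortical bone. The gene (ENSMUSG00000029671) lies on chromosome 6, from 22288227 to 22298522 on the plus strand of GRCm38, and no exon base of it overlaps another gene. It stood at 9.28, 10.8 and 6.93 CPM in the KO libraries and at 2.12, 4.84 and 1.90 CPM in the WT libraries, on 162, 211 and 149 counts against 39, 80 and 33. Every KO library lay above every WT library, and WT replicate 2 came nearest to the KO values. Group means were 8.996 ± 1.94 CPM for KO and 2.95 ± 1.64 CPM for WT (SD, n = 3 each). The log2 fold change was 1.62 (SE 0.35), or 3.06-fold. Its unadjusted p was 0.00121 and its adjusted p = 0.128 (edgeR's quasi-likelihood test, Benjamini-Hochberg), which ranked it at 153 of the 16237 tested genes. It therefore did not pass, while DESeq2 gave an adjusted p of 0.000821 and called 2.92% of its 15735 genes (1.09% of the 15735 as higher in KO). Leaving out any one library kept the fold change between 1.38 and 2.16 on the log2 scale with no adjusted p under 0.05. With KO replicate 3 and WT replicate 2 both left out it was 2.32, with an adjusted p of 0.0967 (edgeR). Those were the lowest KO and the highest WT library for Wnt16, so leaving them out had to raise the fold change. The summed smooth muscle level given above was also higher in KO, and within WT both it and Wnt16 were highest in replicate 2. Within KO the order differed, since replicate 2 had the highest Wnt16 and the lowest smooth muscle sum, 1790 CPM. The part of the smooth muscle level in the Wnt16 difference was not tested.

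As a share of all Wnt ligand counts, Wnt16 made up 17.3, 14.1 and 12.9% in KO and 3.94, 7.01 and 2.70% in WT. This was the same difference seen within the ligand pool, and since shares sum to a fixed total it is no separate evidence. The leading ligand in every library was Wnt5a, with 30.6 to 32.9% of ligand counts in KO and 28.2 to 45.3% in WT. Wnt9a held 12.4 to 16.3% in KO and 11.5 to 22.1% in WT. It lay above Wnt16 in every WT library and in KO replicate 2, and below it in KO replicates 1 and 3.

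**Figure D3:**
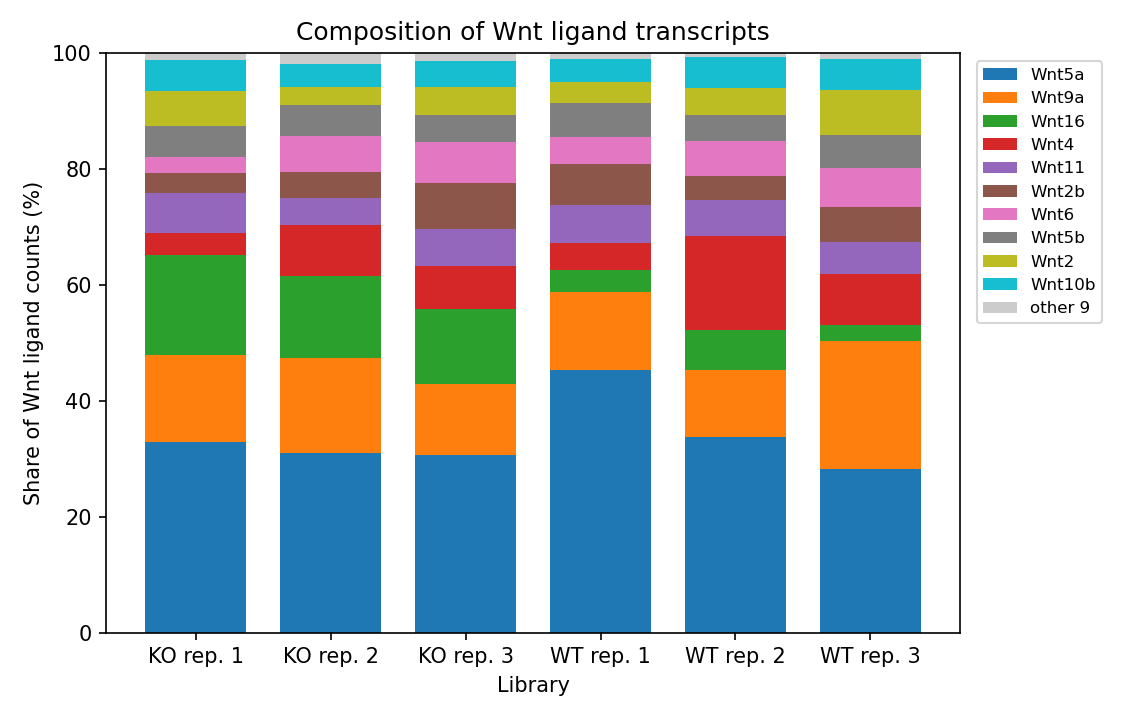
Share of Wnt ligand counts (vertical, %) held by each of the 10 leading ligand genes in each library (horizontal), with the other 9 genes in grey. The green Wnt16 block spans 12.9 to 17.3% in the KO bars and 2.70 to 7.01% in the WT bars, and Wnt5a is the largest block in every bar.

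The other 9 tested ligands all had a negative log2 fold change, from -0.61 for Wnt4 to -0.12 for Wnt5b, none of which passed. The signs held under 3 other scalings of the libraries, but for Wnt2, Wnt2b, Wnt5b, Wnt6 and Wnt9a the sign turned when 1 library was left out, and for Wnt4 and Wnt10b when a pair was. Wnt5a, the prototype of ligands that signal without beta-catenin, stood at 17.7, 23.7 and 16.5 CPM in KO and 24.3, 23.3 and 19.8 CPM in WT, so the groups overlapped. Its log2 fold change was -0.22 (SE 0.17, 95% interval -0.61 to 0.16, edgeR), with -0.39 when KO replicate 2 was left out and -0.12 when KO replicate 3 was. Wnt11, often paired with Wnt5a in cell movement, varied least among the tested ligands, at 3.67, 3.52 and 3.44 CPM in KO and 3.58, 4.30 and 3.85 CPM in WT. The interval of its log2 fold change, -0.62 to 0.33, still leaves room for changes of either sign, and the value moved from -0.14 to -0.0692 without WT replicate 2. Wnt9a, known from joint formation, stood at 8.02, 12.4 and 6.65 CPM in KO and 7.22, 7.93 and 15.5 CPM in WT. KO replicate 2 and WT replicate 3 were the high libraries, 1 in each genotype.

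Wnt4, known from kidney and female reproductive tract development, had the widest range of the tested ligands in WT. It stood at 2.12, 6.79 and 3.95 CPM in KO and at 2.44, 11.2 and 6.26 CPM in WT. The groups overlapped, and WT replicate 2 was highest. Without that library the log2 fold change moved from -0.61 to -0.00259, and without KO replicate 2 to -1.09. The mesothelial transcription factor gene Wt1 was also highest in WT replicate 2, at 4.07, 5.97 and 4.65 CPM in KO and 1.57, 11.9 and 6.95 CPM in WT. Msln, Upk3b, Lrrn4 and Upk1b, of the same list, were also highest in WT replicate 2, at 0.848, 1.998, 1.21 and 0.545 CPM. Gpm6a was ordered otherwise, at 2.46, 4.34 and 6.37 CPM in KO and 4.02, 3.21 and 4.31 CPM in WT. Muc16 was highest in WT replicate 1, at 0.38 CPM. Krt19, a keratin gene of the list, was highest in WT replicate 3, at 0.687, 0.562 and 0.465 CPM in KO and 0.597, 1.15 and 1.55 CPM in WT. The whole list of 8 mesothelial genes summed to 7.56 to 11.8 CPM in KO and 7.27 to 21.1 CPM in WT, with only 3 of them abundant enough to test and Muc16 at 0 in all KO libraries. Its part in the spread of Wnt4 was not tested. Wnt6 and Wnt2b were low in KO replicate 1, at 1.43 and 1.89 CPM, and lay between 2.50 and 4.71 CPM in the other libraries for both. The lung-forming ligand Wnt2 ranged from 1.95 to 5.40 CPM, Wnt5b from 2.56 to 4.09 CPM and Wnt10b, known to hold back fat cell formation, from 2.12 to 3.73 CPM. For all 5 the genotypes overlapped. The log2 fold change of Wnt10b, -0.20, was -0.43 without WT replicate 1 and -0.0626 without WT replicate 3.

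Compared per kilobase of exon, the order of ligand levels changed, because Wnt5a has the longest exon total of the ligands at 7823 bases. Wnt9a then led at a mean of 2.89 CPM per kilobase over the 6 libraries and Wnt5a followed at 2.67, with Wnt9a the higher in 3 libraries of 6. Wnt16 stood at 2.06 CPM per kilobase in KO and 0.677 in WT. From Wnt9a down to Wnt2b the range of each gene over the 6 libraries overlapped that of the next. Wnt2b, at 0.814 CPM per kilobase, did not overlap Wnt10a at 0.122, which marks the step down to the ligands too scarce to test.

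The 9 untested ligand genes had at most 10 counts in any library. Wnt10a had 4, 10 and 3 counts in KO and 2, 5 and 9 in WT, and Wnt9b 4, 6 and 5 in KO and 4, 2 and 1 in WT. Wnt1, Wnt3, Wnt7b, Wnt8a and Wnt8b each had between 0 and 6 counts per library. Wnt3a, the ligand most used in culture to stabilise beta-catenin, and Wnt7a, known from brain vessels, had 0 counts in all 6. An observed 0 is compatible with as many as 3 counts, or 0.140 to 0.182 CPM in these libraries, for counting error only. Such genes were not detectable at this depth, and no difference between genotypes can be read for them. Several ligands lie in neighbouring pairs with no coding gene between them, and the pairs were unequal in level. Wnt9a and Wnt3a lie 16175 bases apart on chromosome 11, with means of 9.03 and 0 CPM in KO. Wnt10b and Wnt1 are separated by 11706 bases on chromosome 15 and had means of 2.77 and 0.121 CPM in KO, and Wnt6 and Wnt10a by 6193 bases on chromosome 1 with 3.30 and 0.293 CPM in KO. In the pair of Wnt9b and Wnt3, 24328 bases apart on chromosome 11, both were scarce.

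Receptor genes were expressed more broadly than ligand genes, with 9 of 10 Fzd genes tested and 8 at a mean of 1 CPM or more. Fzd1 (ENSMUSG00000044674, chromosome 5, 4753839 to 4758035, minus strand, GRCm38) led them. It stood at 160, 144 and 152 CPM in KO and 182, 158 and 217 CPM in WT, where KO replicate 1 lay above WT replicate 2. Group means were 152 ± 8.20 CPM for KO and 186 ± 29.7 CPM for WT (SD, n = 3 each). This gave -0.29 on the log2 scale (SE 0.13, unadjusted p = 0.0561, adjusted p = 0.454, edgeR). Without WT replicate 3 the value was -0.16. Fzd2 and Fzd7 belong to the same subfamily as Fzd1, and stood at 36.9 to 57.7 CPM and 35.5 to 49.0 CPM over the 6 libraries with the genotypes overlapping. No 50-base stretch of the exons of these 3 genes was found in another gene.

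Fzd4, the receptor of norrin in retinal vessels and expressed on endothelium, stood at 88.7, 76.1 and 90.5 CPM in KO and 79.0, 51.5 and 75.6 CPM in WT. WT replicate 2 was the low library. On the log2 scale KO exceeded WT by 0.31 (SE 0.16; edgeR adjusted p = 0.525), and by 0.14 without WT replicate 2. The endothelial list was also lowest in WT replicate 2, at 678 CPM against 742 to 965 CPM in the other libraries, and its part in this value was not tested. Fzd8 (ENSMUSG00000036904) stood at 16.04, 13.3 and 11.9 CPM in KO and 11.7, 10.7 and 10.7 CPM in WT. The groups did not overlap, yet KO replicate 3 and WT replicate 1 were almost level. The difference was 0.32 on the log2 scale (SE 0.16; edgeR adjusted p = 0.515), from 0.19 to 0.41 with single libraries left out.

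Fzd5, closest in sequence to Fzd8, ranged from 22.7 to 30.5 CPM with a log2 fold change of 0.04 (SE 0.16, 95% interval -0.32 to 0.39, edgeR). Of its exon bases 17.8% overlap a gene on the opposite strand, and without a stated strand setting its count is uncertain. Fzd6 and Fzd3, receptors of planar cell polarity, ranged from 13.5 to 23.4 CPM and 2.44 to 5.16 CPM with the genotypes overlapping. Fzd9 was scarce, at 0.630, 0.613 and 1.21 CPM in KO and 0.706, 0.242 and 0.287 CPM in WT, so its log2 fold change of 0.98 had an SE of 0.54 and an interval from -0.25 to 2.21. It was 0.56 without KO replicate 3 and 1.62 without WT replicate 1. Fzd10 was not tested, with 1, 0 and 1 counts in KO and 6, 5 and 3 in WT. Both are receptors of low abundance here, and a handful of counts decides their values. Per kilobase of exon Fzd1 led at 40.2 CPM and did not overlap the next, Fzd2 at 13.0. Fzd2, Fzd4 and Fzd7 (13.0, 11.4 and 8.71) overlapped in turn, as did Fzd5 and Fzd6 (3.86 and 3.76), and Fzd8 at 2.07 stood apart from its neighbours.

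Among antagonists, Sfrp1 was the most abundant gene of all 37. Its protein binds Wnt proteins and Frizzled receptors. The gene (ENSMUSG00000031548, chromosome 8, 23411502 to 23449632, plus strand, GRCm38) stood at 813, 1050 and 678 CPM in KO and 1114, 1020 and 1010 CPM in WT. KO replicate 2 lay within the WT values, while KO replicates 1 and 3 were lower. Group means were 847 ± 188 CPM for KO and 1048 ± 57.4 CPM for WT (SD, n = 3 each). This gave -0.31 on the log2 scale (SE 0.18, unadjusted p = 0.121, adjusted p = 0.569, edgeR). It was -0.49 without KO replicate 2 and -0.17 without KO replicate 3, the library with the skeletal muscle genes. The fibroblast list summed to 36060 to 46651 CPM in KO and 44107 to 55511 CPM in WT. KO replicate 3 had the highest fibroblast sum of the KO libraries and the lowest Sfrp1. That sum was led by the collagen genes Col1a1, Col1a2 and Col3a1, and its part in the Sfrp1 values was not tested.

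Sfrp2 and Sfrp4, antagonists of stromal cells, varied between libraries, with the genotypes overlapping. Sfrp4 stood at 373, 210 and 342 CPM in KO and 336, 222 and 306 CPM in WT. Replicate 2 was thus the low library in both genotypes. Sfrp2 stood at 183, 166 and 209 CPM in KO and 134, 287 and 198 CPM in WT, so both the lowest and the highest library were WT. The sign of both fold changes turned with WT replicate 2 left out, to -0.0606 for Sfrp4 and 0.16 for Sfrp2 on the log2 scale, and that of Sfrp4 also without KO replicate 1, to -0.0638. Of the exon bases of Sfrp2, 16.1% overlap a gene on the opposite strand. Frzb, also called Sfrp3 but not matched by the naming rule, had a log2 fold change of 0.01 (SE 0.21, edgeR).

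Sfrp5, an antagonist that fat tissue secretes, had the largest SE of the 25 tested family members. It stood at 2.41, 8.89 and 2.47 CPM in KO and 0.326, 7.33 and 19.6 CPM in WT. The lowest and the highest library were both WT, on 6 and 342 counts. Its log2 fold change was -0.98 (SE 0.91, 95% interval -3.03 to 1.07, edgeR) and turned to 0.30 without WT replicate 3. The list of 8 Schwann cell genes summed to 200 to 307 CPM in KO and 161 to 369 CPM in WT, with its lowest sum in WT replicate 1, its highest in WT replicate 3 and no gene at 0 in all 6. White adipocyte genes summed to 424, 438 and 1675 CPM in WT replicates 1 to 3, so that WT replicate 2 had a low sum beside a Sfrp5 level of 7.33 CPM. The part of either list in the Sfrp5 values was not tested.

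Dkk3, a divergent Dickkopf protein found in the vessel wall, made up nearly all Dkk counts. It (ENSMUSG00000030772, chromosome 7, 112116017 to 112159057, minus strand, GRCm38) stood at 137, 103 and 104 CPM in KO and 91.9, 101 and 96.2 CPM in WT. The groups did not overlap, but KO replicate 2 and WT replicate 2 were almost equal and KO replicate 1 stood apart. Its log2 fold change was 0.25 (SE 0.13, unadjusted p = 0.0914, adjusted p = 0.522, edgeR), and 0.10 without KO replicate 1. That library also had the highest smooth muscle sum, 2778 CPM, whose part in the value was not tested. Dkk2, which binds the Lrp coreceptors, stood at 4.01, 3.42 and 5.77 CPM in KO and 4.40, 2.85 and 5.57 CPM in WT, with the genotypes overlapping. Dkk1, the best known inhibitor of the family, had 3 counts in WT replicate 3 and 0 elsewhere, and Dkk4 had 0 in all 6 libraries. Neither was detectable as different at this depth.

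Other genes of the pathway were taken from 8 lists that order it from the coreceptors to the target genes. Of the 124 listed genes that have counts deposited, 116 were tested, and 0 passed in either direction, while 13 (11.2%) had an unadjusted p under 0.05 (6 higher and 7 lower in KO, edgeR) against 11.4% of all tested genes. Libraries of the genotypes did not overlap for 14.7% of the 116, against 16.9% of all tested genes. The lists' median log2 fold change was 0.02, against 0.01 for all tested genes. These shares lay near those of genes in general. DESeq2 called 2 of them, Lgr6 and Plcb4, where it called 2.92% of its genes as a whole.

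The receptor turnover list had 5 tested genes, of which 2 (40%) had an unadjusted p under 0.05, against 11.4% of all tested genes (edgeR). Lgr6, a receptor of R-spondins, which raise Wnt signalling by protecting Frizzled receptors, stood at 12.8, 5.77 and 10.3 CPM in KO and 3.96, 4.30 and 3.50 CPM in WT. Every KO library lay above every WT library, with KO replicate 2 nearest. KO exceeded WT by 1.29 on the log2 scale (SE 0.30; edgeR adjusted p = 0.142). Rnf43, a ligase that removes Frizzled receptors from the cell surface and itself a common target gene, stood at 1.72, 2.04 and 1.91 CPM in KO and 4.18, 3.39 and 3.33 CPM in WT. The groups did not overlap, and the difference was -0.94 on the log2 scale (SE 0.24; edgeR adjusted p = 0.184). The relatives Lgr5 and Lgr4 had log2 fold changes of 0.21 (SE 0.36) and 0.0749.

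Among 15 tested secreted modulators outside the 4 families, the gene with the smallest p was Sost. It encodes sclerostin, an antagonist that binds Lrp5 and Lrp6, known from bone and also made by aortic smooth muscle. It stood at 42.1, 9.60 and 17.1 CPM in KO and 0.488, 10.6 and 0.172 CPM in WT. The groups overlapped, because WT replicate 2 lay above KO replicate 2. The difference of 2.63 on the log2 scale (SE 0.97; edgeR adjusted p = 0.332) became 6.06 without WT replicate 2 and 1.87 without KO replicate 1. WT replicate 2 was also the WT library with the highest Wnt16 and smooth muscle sum, and KO replicate 1 had the highest smooth muscle sum of all, whose part in the Sost values was not tested. Tpbg, Gpc4 and Dkkl1 had log2 fold changes of -0.39 (SE 0.18), -0.20 (SE 0.11) and -0.82 (SE 0.53), and 23.5% of the exon bases of Tpbg overlap a gene on the opposite strand. Without WT replicate 2 Tpbg was at -0.20 and Dkkl1 at -0.11, and without KO replicate 1 Gpc4 was at -0.13.

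In the planar polarity and calcium branches, 4 of 30 tested genes (13.3%) had an unadjusted p under 0.05, near the 11.4% of all tested genes (edgeR). Plcb4, a phospholipase C that releases calcium signals, stood at 33.3, 26.4 and 30.9 CPM in KO and 21.0, 17.8 and 19.9 CPM in WT, with no overlap and a difference of 0.63 on the log2 scale (SE 0.14; edgeR adjusted p = 0.132). Plcb1, of the same family, had 0.39 (0.25 without WT replicate 2) and the kinase Rock2, which raises actomyosin contraction, 0.26. Nfatc2, a calcium-activated factor abundant in T cells, stood at 29.0, 35.1 and 37.1 CPM in KO and 40.2, 57.8 and 48.5 CPM in WT, a difference of -0.53 on the log2 scale (SE 0.16; edgeR adjusted p = 0.238). It was lower in every KO library, as was the summed T cell list, whose part in the value was not tested.

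**Figure D4:**
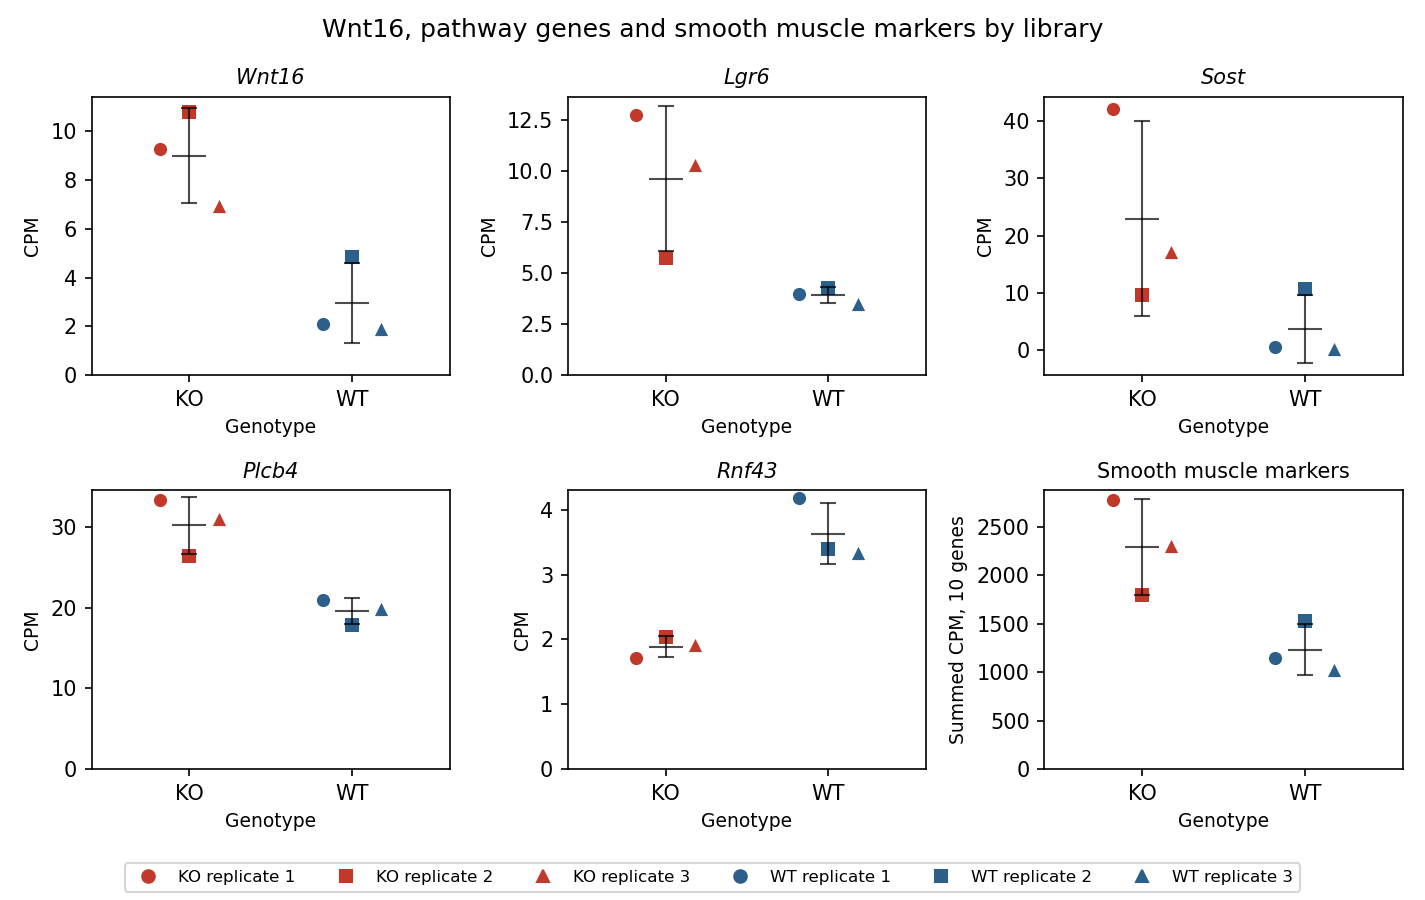
CPM (vertical) of Wnt16, Lgr6, Sost, Plcb4 and Rnf43 and the summed CPM of 10 smooth muscle marker genes in each library, by genotype (horizontal), with 1 symbol for each replicate and black bars for the mean and SD of 3 libraries. KO points lie above WT points for Wnt16, Lgr6, Plcb4 and the marker sum, below them for Rnf43, and overlap them for Sost, where WT replicate 2 stands at 10.6 CPM.

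Coreceptor genes were split in direction. Of 11 tested, 3 (27.3%), Tspan12, Adgra2 and Ptk7, had an unadjusted p under 0.05, against 11.4% of all tested genes (edgeR). Tspan12, the Fzd4 partner in norrin signalling, was at a log2 fold change of 0.50 (SE 0.20). Adgra2, a Wnt7 coreceptor of brain endothelium, was at -0.36 (SE 0.14), and the polarity receptor Ptk7 at -0.42 (SE 0.18). Lrp6 stood at 99.3, 113 and 110 CPM in KO and 98.7, 68.7 and 91.4 CPM in WT, a difference of 0.32 on the log2 scale (SE 0.14; edgeR adjusted p = 0.449). KO replicate 1 and WT replicate 1 were almost level, and without WT replicate 2 the difference was 0.17. Of the others, Adgra2 was at -0.22 without WT replicate 3. Of 7 genes of ligand secretion 0 had an unadjusted p under 0.05, among them Trabd2b (0.56, or 0.33 without KO replicate 1), Snx3 (-0.14), Porcn (-0.16), the acyltransferase that adds the lipid, and Vps26a (-0.0848, or -0.158 without WT replicate 1 and -0.0183 without WT replicate 2).

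Inside the cell, the destruction complex list had 1 of 22 tested genes (4.55%) at an unadjusted p under 0.05, against 11.4% of all tested genes (edgeR). This was Dact1, a Dishevelled-binding protein, at -0.36 (SE 0.15), of whose exon bases 34.9% overlap a gene on the opposite strand. Dvl1 (0.21), Gsk3a (-0.19, with 28.3% of its exon bases overlapped) and Axin1 (-0.17) followed. Single libraries moved these values to 0.14 for Dvl1 (without WT replicate 1), -0.11 for Gsk3a (without WT replicate 3) and -0.10 for Axin1 (without WT replicate 2). Beta-catenin itself, encoded by Ctnnb1, stood at 401, 450 and 403 CPM in KO and 428, 284 and 383 CPM in WT, with overlap and a log2 fold change of 0.20 (SE 0.16, edgeR), and 15.1% of its exon bases overlap other genes. Without WT replicate 2, its low library, the value was 0.042, and without WT replicate 1 it was 0.33. In the list of 17 genes for beta-catenin and its nuclear partners, Tcf7 was at -0.53 (SE 0.21), with Lef1 at -0.51 (SE 0.24), Smarca4 at -0.28 and Bcl9 at -0.24, and only Tcf7 had an unadjusted p under 0.05. Without KO replicate 3 Tcf7 was at -0.84, and without KO replicate 1 Smarca4 was at -0.15. Tcf7 and Lef1 are also factors of T cells, whose list was lower in KO as given above, and its part in these values was not tested.

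By sign alone, 9 of 17 tested common target genes were higher and 8 lower in KO, where 51.1% of all tested genes were higher. At an unadjusted p under 0.05 there were 3 (17.6%), all lower in KO, against 11.4% of all tested genes (6.09% lower, edgeR). Axin2, the most widely used readout of beta-catenin activity, stood at 5.50, 6.84 and 5.21 CPM in KO and 4.23, 5.75 and 6.20 CPM in WT. The groups overlapped, with a difference of 0.12 on the log2 scale (SE 0.22; edgeR adjusted p = 0.908), which turned to -0.0326 without WT replicate 1 and to -0.00522 without KO replicate 2. Beside Rnf43 and Tcf7, Ccnd1, the cell cycle gene of cyclin D1, had an unadjusted p under 0.05 at -0.32 (SE 0.14; -0.20 without WT replicate 2), and 23.4% of its exon bases overlap a gene on the opposite strand. A p that misses the threshold does not show equal levels, and the SE of the 25 family members, from 0.13 to 0.91 on the log2 scale, sets how small a difference these 6 libraries could show.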

How the data were processed

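RNA of abdominal aorta, selected with poly-T beads per the labels' protocols, was sequenced in 3 KO and 3 WT libraries. The authors deposited raw whole-number counts per gene. The submitters' processing notes name HISAT2 2.0.5, featureCounts 1.5.0-p3 and the build GRCm38. For strand setting, annotation release and reads that match several genes, the treatment was not given in the sources used here. Library totals ranged from 17248918 to 21872027 counts, so 1 count was worth 0.0465 to 0.0606 CPM.

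Counts were tested across the whole table with edgeR 4.0.16 in R 4.3.3. The filter was filterByExpr by genotype, which left 16237 genes. Scaling was by TMM, the quasi-likelihood test compared KO with WT, and p-values were adjusted by Benjamini-Hochberg across the 16237 genes (threshold 0.05). The SE is the fold change divided by the square root of F, and intervals are 95%. DESeq2 1.42.0, limma-voom (limma 3.58.1), other scalings, filters and quasi-likelihood fits, a replicate block and leaving out libraries were alternatives. No 2 libraries agreed within sampling noise (chi-square per degree of freedom at least 25.6). Positions, exon lengths and overlaps came from GENCODE mouse release 21 on GRCm38.

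The members and lists were chosen with earlier results of these data known. Named were all 37 genes, up to 4 tested genes of each pathway list by smallest unadjusted p, and marker list sums. Axin2, Ctnnb1, Frzb, the named genes of the marker lists and the CCAAT motif were chosen after their values or letters were seen. Figures were drawn with matplotlib 3.10.9.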

Additional observations from a re-analysis of the deposited data

How the results depend on the processing

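None of the 25 tested family members passed in edgeR, limma-voom or any fit with libraries left out, and DESeq2 called 1, Wnt16 (adjusted p = 0.000821), with 2 of the pathway lists' genes, Lgr6 (0.0034) and Plcb4 (0.018). Members at an unadjusted p under 0.05 numbered 1 to 4 over all settings. Over all alternatives the log2 fold change of Wnt16 ranged from 1.38 to 2.32 and its adjusted p from 0.000821 to 0.297. The 2.32 came without KO replicate 3 and WT replicate 2, its lowest KO and highest WT library. Genes passing over the whole table numbered 2, but 460 in DESeq2, 44 with no filter beyond 1 count, 0 in limma-voom, 1 in the robust fit, 5 without KO replicate 3 and WT replicate 2, and 0 to 167 with 1 library left out, where the 167 came without WT replicate 3. The replicate block gave 0 passing genes and 0 passing members. Same-numbered libraries did not deviate together (r = -0.101, -0.0622 and -0.12). Deviations from a mean of 3 libraries sum to 0, so these values cannot decide whether the numbers pair the libraries.

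Without its most abundant gene the log2 difference of the Fzd sum was 0.14, of the Sfrp sum -0.0343 and of the Dkk sum 0.0462. Of the 25 members 9 kept their sign in every setting run. In limma-voom Sfrp5 was at 0.0892, and in DESeq2 Frzb was at -5.71e-05. Leaving out 1 library, or KO replicate 3 and WT replicate 2 together, turned the sign of 22 named genes on the log2 scale. The ranges were Wnt10b from -0.43 to 0.0206, Wnt2 from -0.65 to 0.0994, Wnt2b from -0.56 to 0.11 and Wnt4 from -1.09 to 0.0617. Next came Wnt5b from -0.33 to 0.024, Wnt6 from -0.50 to 0.17, Wnt9a from -0.48 to 0.25 and Fzd2 from -0.25 to 0.13. Others were Fzd3 from -0.0465 to 0.39, Fzd5 from -0.0667 to 0.14, Fzd6 from -0.10 to 0.34 and Fzd7 from -0.0298 to 0.28. Further ranges were Sfrp2 from -0.39 to 0.16, Sfrp4 from -0.13 to 0.32, Sfrp5 from -1.89 to 0.30 and Dkk2 from -0.42 to 0.28. Then came Axin2 from -0.0326 to 0.25, Frzb from -0.14 to 0.34, Lgr4 from -0.0948 to 0.22 and Lgr5 from -0.0384 to 0.76. Last came Porcn from -0.33 to 0.0296 and Snx3 from -0.27 to 0.026. The cause of these shifts was not tested. Depth limits the 12 untested members, which had at most 10 counts in any library.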
